A study of Mus musculus with 2 samples.

Results

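Retained-intron transcripts are annotated, non-coding versions of a gene in which sequence that is spliced out of the mRNA stays in the RNA. Of 21848 transcripts of this type among the 141767 transcripts quantified in the mouse left cerebral cortex, 1797 had an expected count (an estimated number of reads, not normalized) of at least 100 in both mice and are described here. They came from 1397 genes. The count itself chose them, so their abundance is a description and carries no test.

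The cortex came from 2 male mice of strain B6CASTF1/J, an F1 hybrid, both 36 days old, and each gave 1 total RNA library from 300 ng of RNA. The labels number them biological replicates 1 and 2, give no treatment and list the same donor identifier for both. All samples form 1 group, so no condition was compared. The only contrast is between the mice, and with 1 library each it has no replicate check and no p-value. The libraries held 29780751 transcript counts in replicate 1 and 27881821 in replicate 2. Reads were quantified against the mm10 reference, and the part of CAST alleles in any value was not tested. Neuron markers had a median of 206 and 199 TPM (a level per transcript length and library size), against 8.98 and 8.80 TPM for endothelial markers. In bulk tissue, fewer cells of a type and less RNA per cell cannot be told apart.

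As background, an intron is cut out by the spliceosome, which reads a donor site at its 5′ end (nearly always GT) and an acceptor site at its 3′ end (AG). A transcript that keeps an intron often stays in the nucleus or carries an early stop codon, and several RNA-binding protein genes tune their own output in this way. Total RNA also holds pre-mRNA that has not finished splicing, and in brain some polyadenylated transcripts wait in the nucleus with introns in place.

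Some members keep whole introns, which sets them apart from the mRNA of the same gene. The examples below are short introns flanked by coding exons, printed 5′ to 3′ on the strand of the gene from GENCODE M21 transcript sequences, with the donor and acceptor dinucleotides in capitals.
Ncl-202: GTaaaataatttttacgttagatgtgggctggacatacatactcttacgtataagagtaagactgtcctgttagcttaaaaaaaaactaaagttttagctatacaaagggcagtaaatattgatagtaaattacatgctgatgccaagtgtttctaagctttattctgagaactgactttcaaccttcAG
Clk1-204: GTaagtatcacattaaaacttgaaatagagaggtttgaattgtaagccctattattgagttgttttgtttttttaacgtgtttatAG
Clk4-213: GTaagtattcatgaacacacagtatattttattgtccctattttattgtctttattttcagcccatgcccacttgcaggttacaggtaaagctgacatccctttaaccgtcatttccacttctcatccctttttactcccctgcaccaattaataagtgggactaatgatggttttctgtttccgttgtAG
Hnrnpa2b1-213: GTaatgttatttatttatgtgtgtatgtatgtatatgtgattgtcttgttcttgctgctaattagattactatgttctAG
Prpf38b-207: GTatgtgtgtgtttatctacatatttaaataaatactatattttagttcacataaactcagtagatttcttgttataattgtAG
R3hdm1-207: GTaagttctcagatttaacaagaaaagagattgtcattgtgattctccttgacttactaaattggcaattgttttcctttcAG

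In mm10 these lie at chr1:86352320-86352509 (minus strand, intron 10 of 13 in the leading protein-coding transcript of Ncl), chr1:58417180-58417266 (minus, intron 6 of 12 of Clk1) and chr11:51275579-51275769 (plus, intron 3 of 8 of Clk4). The others lie at chr6:51466223-51466302 (minus, intron 5 of 10 of Hnrnpa2b1), chr3:108907848-108907931 (minus, intron 3 of 5 of Prpf38b) and chr1:128175009-128175091 (plus, intron 8 of 26 of R3hdm1). Their GC content ran from 22.6% in Prpf38b to 38.7% in Clk4. All lie below the lower quartile of 44.4% over the whole introns inside members, so they do not stand for the set.

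A few kept introns use rarer splice sites. AT-AC introns are read by the minor (U12-type) spliceosome, and GC donors are a weaker variant read by the major one. Each line gives 10 exon bases followed by intron sequence, with the 6 intron bases at the donor in capitals.
Tcea2-206: atcgaggagtATATCCtttgtacagggtat
Ift80-204: gaaccaaagcATATCCtttaaccctgtata
Hp1bp3-212: ggccattaagGCAAGTtgttatttcaagca
Snrnp48-204: atacactgagGCAAGTttcacatgcttttg
Fam13c-205: cagctcaaagGCAAGTgtcccttccctcag

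The donors lie at chr2:181686237-181686266 (plus, Tcea2), chr3:68994481-68994510 (minus, Ift80), chr4:138226039-138226068 (plus, Hp1bp3), chr13:38217486-38217515 (plus, Snrnp48) and chr10:70542716-70542745 (plus, Fam13c). Snrnp48 itself encodes a protein of the minor spliceosome. Its kept intron was 3192 bases long, and the AT-AC introns of Tcea2 and Ift80 were 351 and 3537 bases long.

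Whole introns of the protein-coding transcripts were found in 840 of the 1781 members whose gene has such transcripts: 449 held 1 annotated intron, 187 held 2 and 204 held 3 or more, up to 19. In 170 members some of these introns overlap, as alternative versions of 1 stretch. Merged into separate stretches, 539 members held 1, 177 held 2 and 124 held 3 or more, up to 10. The other 941 held no whole intron. Of these, 474 ended inside an intron, 324 started inside one, 118 did both and 25 did neither. Many members are therefore transcript models that run into or out of an intron rather than models with an intron spanned by exons. The median share of bases outside the protein-coding exons of the gene was 39.1%, called the outside share below. It was 0 in 8 members, among them Srsf1-203 and Arpp21-222. Those sequences lie wholly inside exons of other, coding models of the gene, untranslated parts included. An intron of 1 coding model can lie in an exon of another, as all 106 bases of an intron in Ubl3-205 do. An outside share of 0 therefore does not show that a member keeps no intron.

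The 1616 distinct whole introns, overlapping versions included, had a median length of 452.5 bases, against 248 bases for the 7054 introns inside retained-intron transcripts under the minimum and 1186 bases for the other introns of the same genes' leading protein-coding transcripts. A whole intron must be shorter than the model that holds it, which bounds these lengths. Of the 1616, 1186 were introns of the leading protein-coding transcript, with a median of 408.5 bases against 239 for the 5722 such introns under the minimum. Median GC was 51.6% in members and 51.3% under the minimum. GT-AG ends made up 96.8% of the member introns. GC-AG ends made up 2.10% (34 introns), against 0.964% (68) under the minimum, and 2 introns were AT-AC. Among introns of the leading transcript GC-AG ends made up 1.60% and 0.856%. The donor GTAAGT, the form that pairs best with the U1 snRNA, was present in 9.72% of member introns and 9.21% of those under the minimum. Coding sequence flanked 89.4% of the member introns and 92.4% of those under the minimum. Of the 1167 in leading transcripts with at least 3 introns, 6.60% were the first and 6.08% the last intron. An even spread over positions would give 9.88%. Under the minimum 7.94% of 5615 were the first and 6.66% the last, against 10.7% for an even spread. Low shares of first and last introns were thus not particular to members.

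The 3′ ends of the models differed with where they lay. Cleavage and polyadenylation of an mRNA follow a signal, most often AATAAA or ATTAAA, and the last 50 bases of each model were searched for these words on the transcript strand. A word was present in 184 of 835 members ending in an intron (22.0%), in 524 of 855 ending in an exon (61.3%) and in 65 of 91 ending beyond the protein-coding transcripts (71.4%). The share was 20.5% in the other 20051 retained-intron transcripts, 78.7% in 11566 leading protein-coding transcripts and 33.7% in all transcripts. A match is a word, not a shown site. The ends below belong to abundant members that stop in an intron, with a word in capitals where there is one.
Shc3-202: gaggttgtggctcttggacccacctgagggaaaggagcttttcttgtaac
Abcc5-208: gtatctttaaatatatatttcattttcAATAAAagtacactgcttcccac
Pfkp-212: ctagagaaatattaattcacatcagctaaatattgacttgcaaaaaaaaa
Sphkap-201: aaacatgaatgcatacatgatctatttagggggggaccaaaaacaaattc
Gria2-206: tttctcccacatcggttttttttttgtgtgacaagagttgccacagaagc

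These ends lie at chr13:51566257-51566306, chr16:20400760-20400809, chr13:6588955-6589004, chr1:83265127-83265176 and chr3:80691521-80691570, all on the minus strand. Only Abcc5-208 of the 5 holds a word in this window.

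Together the members held 534036 expected counts in replicate 1 and 600223 in replicate 2, or 1.79% and 2.15% of all transcript counts. All retained-intron transcripts held 3.06% and 3.88%. The median level of a member was 3.94 TPM in replicate 1 and 4.89 TPM in replicate 2. Members were longer than the other retained-intron transcripts, with a median of 2961 bases against 830, and a longer model collects more reads at the same level. A further 779 transcripts reached the minimum in 1 mouse only, 148 of them in replicate 1 and 631 in replicate 2. Just inside the minimum were Ptprk-207 (100.01 and 115.76 counts) and Usp36-203 (100.06 and 150.71). Just outside were Strn4-207 (109.51 and 99.79) and Zfp638-218 (99.96 and 129.96).

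By the mean count of the 2 mice the most abundant member was Tmem178b-202, with 5099 expected counts in replicate 1 and 4863 in replicate 2. This single-exon model of 6250 bases starts in an intron of Tmem178b, a membrane protein gene, and had an outside share of 95.6%. It was the most abundant transcript of its gene by TPM in both mice, with 36.9% and 36.6% of the gene's TPM (the deposited IsoPct). Its reads were hardly shared with other models, since the posterior SD of its count was 0.08% of the count.

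Syne1-207, of the gene of the nuclear envelope protein nesprin-1, had 5175 and 4028 counts. Its log2 ratio of replicate 2 over replicate 1 was -0.33 (95% counting interval -0.39 to -0.27), against 0.11 for the summed protein-coding transcripts of Syne1. It thus differed in the direction opposite to most members. Uchl1-202, of the gene of an abundant neuronal ubiquitin hydrolase, had 4630 and 4511 counts and 69.6% and 71.0% of the gene's TPM. The read-based tables listed it at 0 in both mice, so this assignment rests on 1 of the deposited methods.

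Rsrp1-204, of an arginine and serine rich protein gene, had 2940 and 4062 counts and 43.2% and 65.8% of the gene's TPM. Its log2 ratio was 0.50 and that of its summed protein-coding transcripts -0.93, so that this abundant member had one of the largest differences between the mice (log2 1.44). Snrnp70-216, of the U1 snRNP 70 kDa protein, had 2080 and 3165 counts at 17.4% and 20.5%, both higher in replicate 2.

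Ncl-202, of nucleolin, which works in ribosome assembly, had nearly equal counts of 2170 and 2159. It held 66.7% and 63.0% of the gene's TPM, with the summed protein-coding transcripts at 26.4% and 25.7%. By counts both kinds were close, since the protein-coding transcripts had 2214 and 2105 counts. The leading coding model is 8202 bases long and the member 3072, and TPM divides by length.

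Among the other abundant members were models in neuronal signalling genes. Prkcb-208, of a protein kinase C, had 3569 and 2827 counts at 43.5% and 41.6%. Ank2-216, of ankyrin-B, which anchors membrane proteins, had 2941 and 2859 counts at 16.0% and 16.1%, with an outside share of only 0.04%. Kcnt1-206, of a sodium-activated potassium channel, had 1769 and 2305 counts at 25.7% and 28.1% and led its gene. Gria2-206, of an AMPA glutamate receptor subunit, had 1437 and 2381 counts, the widest ratio of these 20, and its exons overlap another annotated gene on the same strand. The plot of the most abundant members shows that IsoPct was spread more widely between transcripts than between the mice, with the widest gap between mice in Rsrp1-204.

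**Figure D1:**
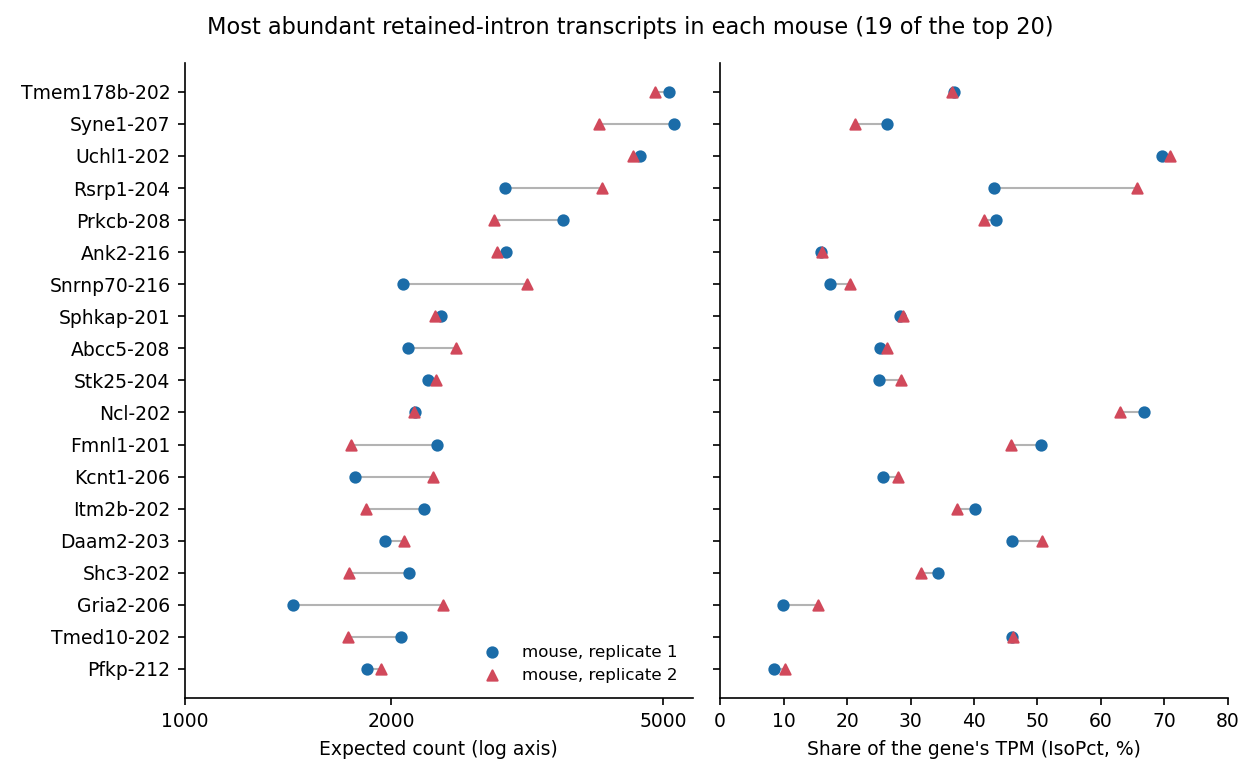
Expected count (log axis, left) and share of the gene's TPM (IsoPct in percent, right) of 19 of the 20 most abundant members; circles are the mouse of replicate 1 and triangles that of replicate 2. Counts ran from 1437 to 5175, and Rsrp1-204 had the widest gap in share, 43.2% against 65.8%.

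Most members were minor transcripts of their gene. The median IsoPct was 9.44% in replicate 1 and 10.7% in replicate 2 (mean of the medians 10.1%, SD 0.884, n = 2), and the summed protein-coding transcripts of the same genes had medians of 68.4% and 65.2%. In both mice, 1279 members held at least 5% of their gene's TPM, 366 at least 20% and 57 at least 50%, and 368 stayed under 5%. The highest share in the gene belonged to the member in both mice for 132 members, 124 of them in genes with protein-coding transcripts.

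Members that led their gene were shorter than the rest, with a median of 1688 bases against 3040, and had a lower outside share, 14.9% against 42.5%. Since TPM divides by length, a shorter model has a higher IsoPct at the same count. From the lowest to the highest bin of outside share, the median IsoPct in the 2 mice went from 17.8% and 17.1% to 4.55% and 6.13%. Of members with an outside share up to 10%, 15.9% led their gene, and of those over 75%, 0.532%. The median posterior SD of the count went along the same bins from 14.95% to 1.99%. Members that mostly repeat exons of protein-coding transcripts had both the higher shares and the less certain counts. How far shared reads or model length set those shares was not tested.

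**Figure D2:**
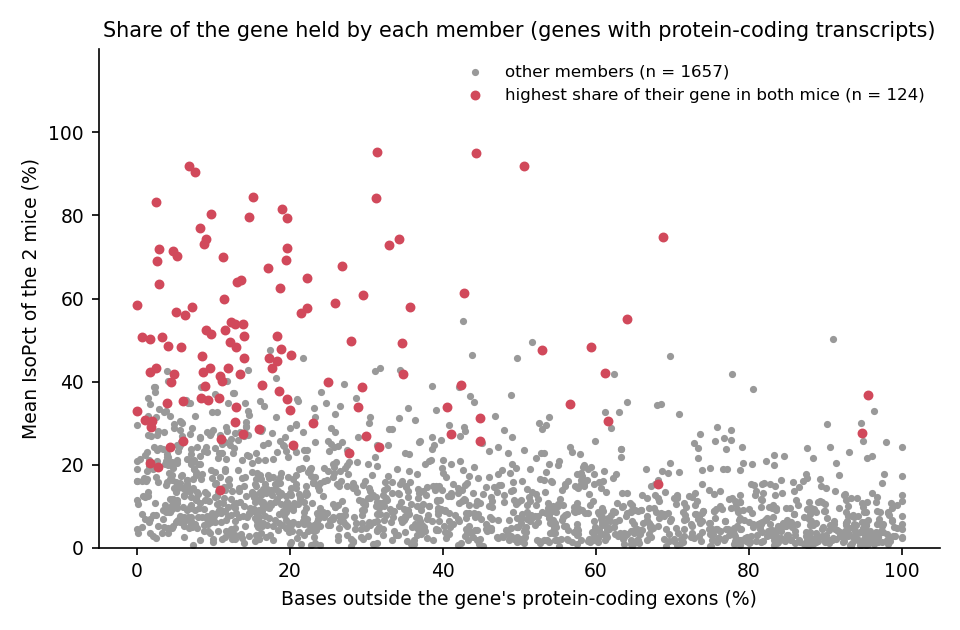
Mean IsoPct of the 2 mice (percent) against the percent of a member's bases outside protein-coding exons of its gene, 1 point per member in genes with protein-coding transcripts; red points led their gene in both mice. The red points lie mostly at the left, where little sequence is particular to the member.

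Among the members with the highest shares, Prelid1-202, of a mitochondrial lipid transfer protein, held 91.6% and 92.1% of its gene's TPM with 1516 and 1316 counts. Mrps26-201, of a mitochondrial ribosomal protein, held 91.1% and 90.1%, and the read-based tables gave 91.3% and 90.3%. Mrpl57-202, also of a mitochondrial ribosomal protein, held 84.6% and 84.2%, and the read-based 84.3% and 84.8%. Both methods thus put most of these genes' TPM on the annotated retained-intron model. Both values are shares of TPM, which divides by length, and these members are shorter than the leading coding models. Mrps26-201 is 1057 bases long against 4278, Mrpl57-202 is 519 against 2877, and Prelid1-202 is 1204 against 2644. How far model length set these shares was not tested.

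Other high shares did not hold in the read-based tables. Rps26-202 held 95.1% and 95.3%, but 33.9% and 41.6% in the read-based tables. Atp5j-208, Rps18-210 and Rps23-202 held between 76.7% and 87.8% and were listed at 0 in the read-based tables of both mice. Ribosomal protein genes have many near-identical copies in the genome, and the part of reads shared with them was not tested.

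The 2 kinds of table also differed in the other direction. Cox7b-203, of a cytochrome c oxidase subunit, held 60.7% and 55.4% by alignment and 99.4% and 99.1% by reads. Over all members, 1474 had at least 100 read-based counts in both mice and 37 were listed at 0 in both. By reads 109 members led their gene, and 73 led by both. Of the 132 leading members, 9 were listed at 0 in both read-based tables, 6.82%, against 1.68% of the others.

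Members were counted over lists of genes. Of the 6992 genes with an annotated retained-intron transcript and a count of at least 100 in both mice, 20% held a member. That share depended on the gene's count: it was 4.37% at 100 to 500 counts, 13.1% at 500 to 1000, 23.2% at 1000 to 2000, 35.6% at 2000 to 5000 and 48.4% at 5000 or more. In genes of SR proteins and their kinases, 15 of 16 held a member (93.8%), at a median gene count of 1910. The share was 46.0% for core spliceosome genes (23 of 50), at a median gene count of 1527. It was 37.5% for neuronal splicing regulators (6 of 16) and 30.4% for hnRNP and PCBP genes (7 of 23), whose median counts of 3189 and 2756 lie in the bin where 35.6% of all genes held a member. No list was tested, since the members were chosen by their counts.

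**Figure D3:**
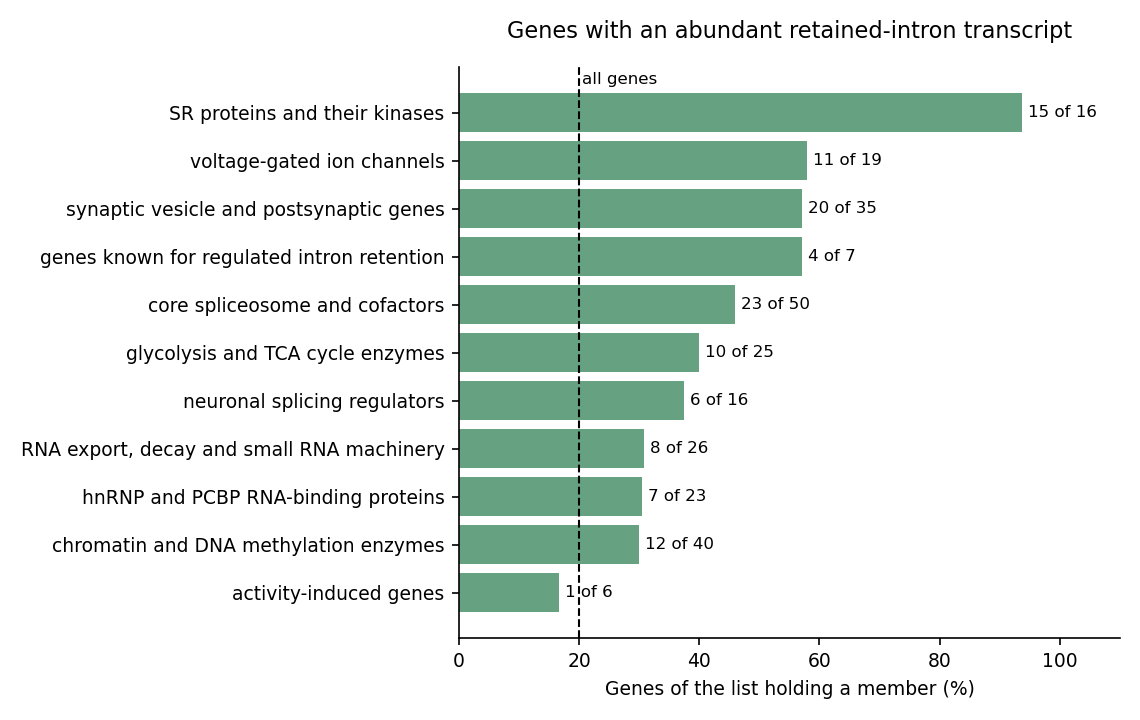
Percent of the genes of each list that held a member, cell type marker lists left out, among genes with an annotated retained-intron transcript and at least 100 counts in both mice; the dashed line is the share over all such genes, 20%, whatever their count. Of the lists drawn, SR proteins and their kinases had the highest share, 15 of 16, and activity-induced genes the lowest, 1 of 6.

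SR proteins bind exons and recruit the spliceosome, and the CLK and SRPK kinases phosphorylate them. The 23 members of this group had mean IsoPct values from 1.99% to 30.1% with a median of 14.4%, against 10.1% over all members. Srsf2-203 had 612 and 660 counts and 29.6% and 30.7% of its gene's TPM, and Srsf6-204 had 647 and 730 counts at 27.1% and 26.1%. Each keeps 1 intron stretch that other models of the gene splice in alternative ways, and in both the share was close between the mice. Tra2a-203, of a related splicing activator, had 638 and 718 counts at 23.5% and 27.7%, with an outside share of 94.9%.

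Srsf5-212 was the most abundant member of the group, with 1734 and 1631 counts. Its share was 28.5% in replicate 1 and 22.2% in replicate 2, while its protein-coding transcripts were higher in replicate 2, a log2 difference of -0.57. Of the 21 members of the group with a difference, 14 (66.7%) were above 0, against 76.8% of all members. The 4 members of Srsf11, which encodes an SR-like protein, had the opposite sign, with differences of 0.69 to 1.06. The summed protein-coding share of Srsf11 was 28.5% and 18.5%. One of the 4, Srsf11-213, reversed in the read-based tables (-0.32).

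Clk1, a kinase gene known for stored, intron-containing transcripts, had 2 members. Clk1-204 keeps 3 separate whole introns, among them the 87-base intron shown above. It had 567 and 566 counts and 16.7% and 19.3% of the gene's TPM, and the summed protein-coding transcripts had 15.1% and 6.19%. These coding transcripts had under 100 counts in replicate 2, so no difference was computed. Clk4-213 keeps 3 separate intron stretches and had 384 and 388 counts at 11.4% and 12.03%. Clk4-207, a shorter model ending in an intron, led the gene with 29.7% and 25.1%.

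**Figure D4:**
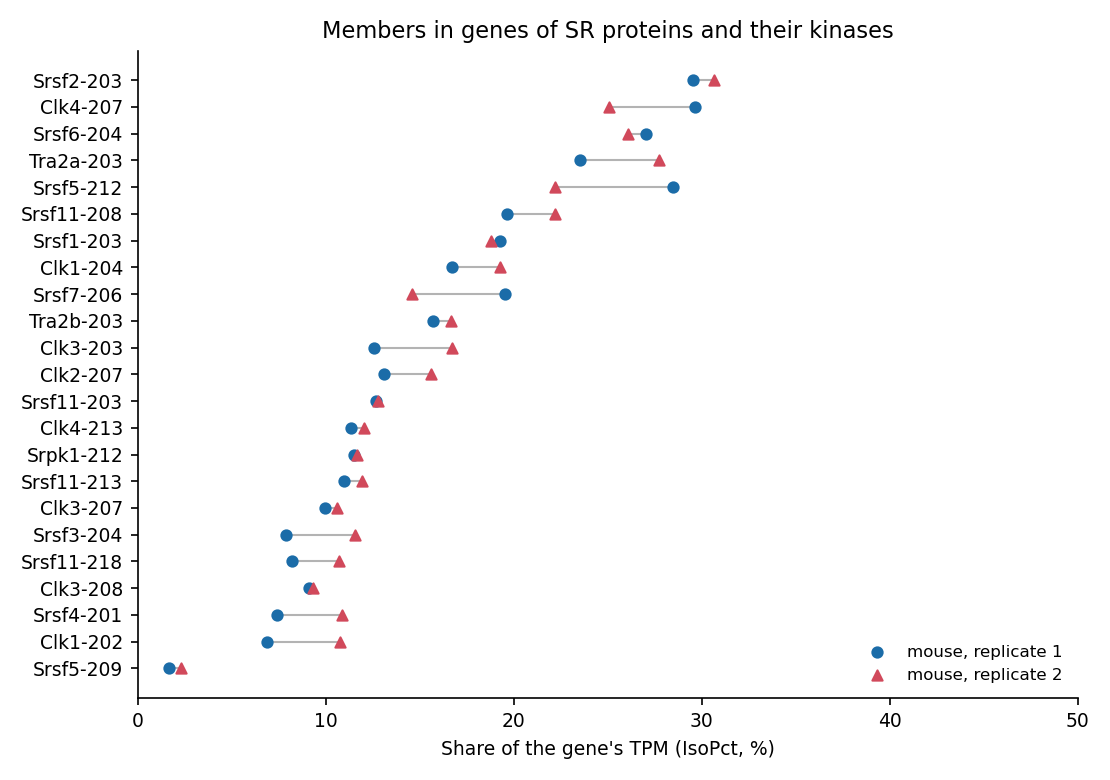
Share of the gene's TPM (IsoPct in percent) of each of the 23 members in genes of SR proteins and their kinases; circles are the mouse of replicate 1 and triangles that of replicate 2. Mean shares ran from 1.99% for Srsf5-209 to 30.1% for Srsf2-203, and Srsf5-212 was lower in replicate 2, at 22.2% against 28.5%.

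Core spliceosome genes held 39 members with a median IsoPct of 12.6%. Rbm5-219, of a splicing factor that acts on exon choice, had 1171 and 1689 counts at 16.9% and 20.97%. Sf3b1-203, of the U2 snRNP subunit that binds the branch site, had 927 and 1122 counts at 20.5% and 24.99%. Ddx39b-204, of a helicase that also acts in mRNA export, had 801 and 935 counts at 29.96% and 33.4%. All had a ratio above that of their protein-coding transcripts. Prpf31-205, of a tri-snRNP protein, had the highest share of the group, 42.1% and 41.5%, with 133 and 127 counts. Snrnp48-204, which holds the GC-AG intron shown above, had 236 and 357 counts at 17.2% and 26.0%.

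Snrnp70 held 5 members with a summed IsoPct of 45.2% and 50.6%, above the summed protein-coding share of 40.8% and 35.3%. Of the 39 members in core spliceosome genes, 35 (89.7%) had a log2 ratio above that of their protein-coding transcripts, against 76.8% of all members. The median difference was 0.52, against 0.28 over all members. The median outside share of these 39 was 59.0%, against 39.1% over all members, and its part in the larger difference was not tested. Of all members 50 to 75% outside, 87.6% were above, with a median difference of 0.33.

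Among hnRNP genes, whose proteins coat nascent RNA, 7 held 13 members. Hnrnpl-206 had 804 and 1002 counts at 11.0% and 13.7%. Hnrnpa2b1-213, with 2 separate intron stretches, had 360 and 489 counts at 2.68% and 3.66%. Both had more counts in replicate 2. Hnrnpk-215, with an outside share of 6.32%, had 352 and 251 counts but a read-based share of 0.363% and 0.

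Neuronal splicing regulators set exon choice in neurons, and 6 of their genes held 12 members with low shares, at a median of 3.77%. Mbnl2-206, of a muscleblind protein, had 621 and 943 counts at 4.91% and 7.87%. Celf2-227, of a CELF protein, had 459 and 721 counts at 2.41% and 3.57%. All 12 members had a higher ratio than their protein-coding transcripts, against 76.8% of all members, and the median difference was 0.55. Their median outside share was 77.2%, and of all members over 75% outside 89.7% were above. Ogt-204, of the enzyme that adds O-GlcNAc to proteins and is known for a retained, nuclear transcript, had 1253 and 1638 counts at 21.7% and 25.9%. It was the most abundant member among the genes known for regulated intron retention. Of these, 4 of 7 held a member (57.1%), at a median gene count of 3521, where 35.6% of all genes did. There, 3 of the 5 members with a difference (60%) were above 0, against 76.8% of all members.

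Synaptic genes held members at small shares. Of 35 such genes 20 held a member (57.1%), at a median gene count of 14873, and 48.4% of all genes with 5000 or more counts did. The 35 members had a median IsoPct of 2.68%, and 24 of them (68.6%) had a ratio above that of their protein-coding transcripts, against 76.8% of all members. Gria2-204 had 1178 and 2203 counts at 5.77% and 10.3%, and Gria2 as a whole had 4 members with a summed share of 25.5% and 35.5%. Nlgn1-204, of a postsynaptic adhesion protein, had 637 and 726 counts at 22.3% and 26.2%. Snap25-203, of a fusion protein of synaptic vesicles, had 549 and 690 counts, which made only 0.46% and 0.64% of that gene's TPM.

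Voltage-gated ion channel genes held 19 members in 11 of 19 genes (57.9%), at a median gene count of 5530, where 48.4% of all genes held one. Cacna1e-206, of a calcium channel, had 583 and 739 counts at 10.3% and 11.4%. Kcnq3-203, of the M-current potassium channel, had 365 and 447 counts at 10.1% and 12.9%. Scn1a-205, of a sodium channel, had 108 and 180 counts at 3.62% and 7.0%. All 19 had a ratio above that of their protein-coding transcripts, against 76.8% of all members, with a median difference of 0.37 and a median outside share of 57.6%. Of the 19, 1 was below 0 in the read-based tables, where Kcnt1-208 and Cacna1d-212 were listed at a share of 0 in at least 1 mouse. Of 6 activity-induced genes only Egr3 held a member (16.7%), at a median gene count of 1362, where 23.2% of all genes did. Egr3-202 had 31.9% and 29.3% of the gene's TPM and a difference of -0.03.

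Most members were higher in replicate 2 relative to the protein-coding transcripts of the same gene. For 1717 members the summed protein-coding transcripts had at least 100 counts in both mice. Members had a median log2 ratio (replicate 2 over 1) of 0.24, and those protein-coding sums one of -0.04. The difference within the gene had a median of 0.28 (1.21-fold; quartiles 0.02 and 0.53), and it was above 0 in 1319 members, or 76.8%. Both transcripts of a pair come from the same library, so the scaling between libraries drops out of this difference.

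The shift was small for most members. A difference over 1 (more than 2-fold) was found for 51 members higher in replicate 2, or 2.97%, and for 12 lower, or 0.699%. The 95% counting intervals of member and protein-coding ratio lay apart for 688 members higher and 88 lower, and overlapped for 941. These intervals cover counting error only, and reads shared between models and differences between 2 animals add to it. The read-based tables gave a median of 0.30, and 1423 of 1656 members with a read-based value had the same sign in both. Of the members over 1 with a read-based value, 28 of 50 higher and 3 of 11 lower were over 1 there too.

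Other transcript types over the same minimum of 100 counts were shifted less; their abundance was not matched. The median difference was 0.05 for 597 nonsense-mediated decay transcripts, of which 54.3% were above 0, and 0.06 for 586 processed transcripts, of which 55.3% were. It was 0.01 for 8981 protein-coding transcripts set against the others of their gene, of which 50.8% were above 0. Large differences were most frequent among protein-coding transcripts, but these were not measured alike. Each was set against the protein-coding sum of its gene without itself, and the other types against the full sum. Of the 8981, 6078 had an outside share up to 10%, against 256 of the 1717 members. Over 1 higher were 2.51% of nonsense-mediated decay, 0.683% of processed and 4.14% of protein-coding transcripts, and over 1 lower were 2.01%, 1.54% and 3.96%.

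The shift differed with the outside share. The median difference of members was 0.02 up to 10% outside (n = 256), 0.16 at 10 to 25% (n = 367), 0.28 at 25 to 50% (n = 384), 0.33 at 50 to 75% (n = 340) and 0.44 above 75% (n = 370). The percent of members above 0 went from 51.6 to 89.7 over these bins, and the read-based median from 0.07 to 0.42. Members made mostly of sequence in exons of protein-coding transcripts, the lowest bin, had a median difference close to 0. Processed transcripts went from -0.04 to 0.33 over the same bins, with 40 transcripts in the highest bin. Nonsense-mediated decay transcripts went from -0.01 to 0.25 at 25 to 50%, with only 13 in each higher bin, and protein-coding transcripts stayed between 0.00 and 0.04.

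**Figure D5:**
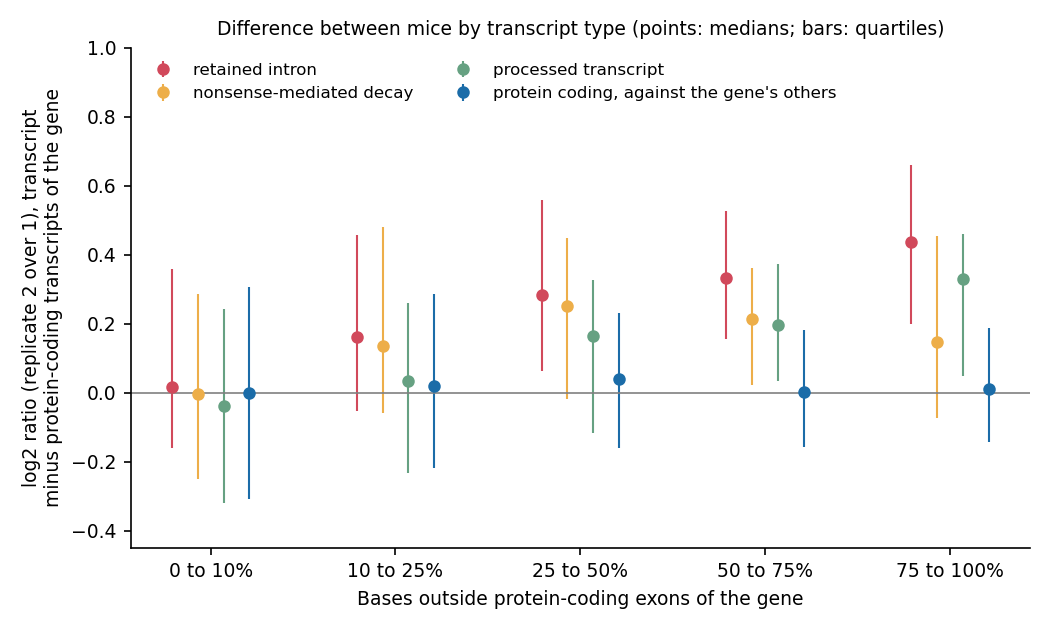
Median (points) and quartiles (bars) of the log2 ratio of replicate 2 over replicate 1, transcript minus protein-coding transcripts of the gene, by percent of bases outside protein-coding exons and by transcript type. Retained-intron medians went from 0.02 to 0.44, and protein-coding medians stayed between 0.00 and 0.04.

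By structure, members with a whole intron had a median difference of 0.33 (n = 796), those only ending in an intron 0.28 (n = 468) and those with both ends in introns 0.37 (n = 116). Those only starting in an intron had 0.10 (n = 314) and a median outside share of 15.1%. Among members ending in an intron, the median was 0.31 with a polyadenylation word and 0.34 without one.

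Values of some nuclear and mitochondrial RNAs stand beside this shift. The 8 nuclear long non-coding RNAs examined, chosen after values were seen, were all higher in replicate 2, with a median log2 ratio of 0.44. They ran from 0.13 in Mirg and 0.19 in Rian to 0.88 in Neat1, with Malat1 at 0.40 and Meg3 at 0.53. Snhg11, 1 of the 8, also held a member, and each value sums all transcripts of its gene. Other long non-coding RNAs were not examined in this way. The 8 do not stand for all nuclear RNA. Of all transcript counts, small nuclear RNAs held 0.1034% in replicate 1 and 0.0983% in replicate 2, and small nucleolar RNAs 0.0389% and 0.0367%. Small Cajal body RNAs held 0.0230% and 0.0242%, and long intergenic non-coding RNAs 4.32% and 5.05%. Of 13 mitochondrially encoded mRNAs 3 were higher, with a median of -0.11, and the median over the protein-coding sums of 11146 genes was -0.05. The part of nuclear RNA content, dissection or RNA quality in the members' shift was not tested, and with 1 library per mouse animal and library cannot be told apart.

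The members with the largest differences were low in count and often uncertain. Tmem214-204, of a membrane protein gene, had 102 and 294 counts (log2 difference 1.70; read-based 1.14). Sdccag8-204, of a ciliary protein gene, had 123 and 266 counts (1.5; read-based 1.40) and held 33.7% and 57.6% of the gene's TPM. Ywhaz-207, of a 14-3-3 protein, had 119 and 294 counts (1.49; read-based 0.97), and Mccc1-204, of a leucine breakdown enzyme, had 108 and 194 (1.38; read-based 0.93). The highest value, 2.41 for Man2a2-202, a Golgi mannosidase gene, rests on a transcript listed at 0 in both read-based tables. Rsrp1-204 stands apart in this set with counts of 2940 and 4062.

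In the other direction Tmem59-205 had 506 and 160 counts and a difference of -3.06, but the read-based tables gave it only 26.3 and 12.9 counts and -0.81. Sfi1-209, of a centrosome protein gene, had 265 and 139 counts (-1.61; read-based -1.17). Gga2-205, of a Golgi sorting adaptor, had 333 and 231 counts at 50.5% and 36.3% (-1.40; read-based -0.88). Gjb6-204, of the astrocyte connexin 30, had 287 and 122 counts (-1.22; read-based -0.70), and Ncor1-206, of a nuclear corepressor, 436 and 188 (-1.22; read-based -0.52). Ndufb4-202, of a complex I subunit, had 184 and 102 counts and -1.44, but 0.35 in the read-based tables.

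Some genes held several members, whose reads come from overlapping models and are not independent. Of the 1397 genes, 1100 held 1 member, 225 held 2 and 72 held 3 or more. In 47 of these 72 every member had a ratio above that of the protein-coding transcripts, and in 0 were all below. Arpp21, a gene of a phosphoprotein of striatal and cortical neurons, held the most, 7, with a summed IsoPct of 29.4% and 35.9%, near its protein-coding share of 31.4% and 28.8%. R3hdm1, a gene of a putative RNA-binding protein, held 6 with a summed share of 27.98% and 34.2%. All but R3hdm1-210 had differences of 0.48 to 0.94. R3hdm1-210, with an outside share of 10.3%, was at 0.03 and was the one whose share differed most between tables, at 15.8% and 14.8% by alignment against 0.54% and 0.98% by reads. Tia1, of a stress granule protein, held 4 members at differences of 0.80 to 1.28 (read-based 0.49 to 0.65), and its protein-coding share was 25.8% and 15.6%.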

How the data were processed

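Left cerebral cortex total RNA of 2 mice was measured, 1 library each. The authors deposited alignment-based transcript tables with expected counts (not normalized), TPM and IsoPct (a percent of the gene's TPM), and read-based tables with estimated counts and TPM, by software not given in the sources used here. Transcript models were those of GENCODE M21 on mm10, as the annotation listing in the deposit gives them. Members and gene lists were chosen with earlier results of these data known.

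Named members follow a rule: the 20 with the highest counts, the 15 with the highest IsoPct, the 6 highest and 6 lowest differences, members in listed genes, members of genes with 3 or more, the 5 largest share differences between tables in each direction, and those next to the minimum; a few of these are not reported here. Ratios used edgeR 4.0.16 TMM library sizes and a prior count of 0.5, and intervals were exact binomial (SciPy 1.17.1). DESeq2 1.42.0 size factors, library and spike-in totals, other minimums, priors and tables were tried. Differences were tested on simulated data: of 1517 unchanged members 1.58% had intervals apart, and of 200 simulated at 2-fold 99.5%. The simulated counts held counting error only, without reads shared between models or differences between animals. The 1.58% is therefore not an error rate for the measured members.

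Depth was 29780751 and 27881821 counts. The labels do not say whether a stranded count was used, so antisense overlap cannot be told apart. Introns under 30 bases were left out. Where genes overlap on a strand (113 members), reads may be split.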

Additional observations from a re-analysis of the deposited data

How the results depend on the processing

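With a minimum of 50 counts there were 3821 members, and with 200, 734; whole introns were then in 1630 and 348. The median IsoPct was 7.88% and 14.04% at these minimums, 8.74% as a share of counts and 8.27% in the read-based tables. The median ratio between the mice was 0.31 with library totals, 0.64 with spike-in totals and 0.32 in the read-based tables, and 0.28 and 0.18 at the minimums of 50 and 200. The median difference within the gene was 0.29 with protein-coding counts of at least 500, 0.27 with a prior count of 5, 0.30 in the read-based tables, 0.27 with members of 1 gene summed, 0.33 and 0.22 at 50 and 200, and 0.27 (0.265) with 1 member per gene. Members over 1 higher numbered 89 in the read-based tables, 29 with members of 1 gene summed, 32 with 1 member per gene, and 186 and 6 at 50 and 200. Members over 1 lower numbered 6 with protein-coding counts of at least 500, 37 in the read-based tables, and 28 and 3 at 50 and 200. The rise over the outside share (0.42 between the lowest and highest bin) was 0.34 against exons of every other transcript, 0.35 in the read-based tables, 0.43 (0.425) without overlapping genes, 0.44 without uncertain counts, 0.40 with 1 member per gene and 0.38 at 200; these were chosen after seeing the data. The longest intron of each member had a median of 725 bases and 49.9% GC, and introns of the leading transcript only, a set added after seeing the data, 408.5 bases and 51.5%. Ndufb4-202 reversed, from -1.44 to 0.35. The cause was not tested in any of these.

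No paired analysis was possible because all samples form 1 group. Leaving out 1 mouse gave 1945 to 2428 members, and ratios need both mice. Counts near the minimum limit precision, with a median posterior SD of 6.89% and over 20% in 146 members.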

Other observations

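Metabolic and chromatin genes also held members. Of 25 genes of glycolysis and the TCA cycle 10 held 16 members (40%, at a median gene count of 6758, where 48.4% of all genes held one), with a median IsoPct of 4.51%, and 14 of the 16 were above their protein-coding transcripts in replicate 2 (median difference 0.36), against 76.8% of all members. Of 40 genes of chromatin and DNA methylation enzymes 12 held 18 members (30%, at a median gene count of 3374, where 35.6% did) at a median of 9.33%, and 16 were above (0.39). Genes of RNA export, decay and small RNA machinery held 11 members in 8 of 26 genes (30.8%, at a median gene count of 1719, where 23.2% did) at 12.02%, and 7 of 10 were above. Tnrc6b-204, of a protein of microRNA silencing, had 671 and 768 counts at 21.1% and 21.2%. Thoc1-211, of the export complex THO, had 178 and 252 counts at 22.3% and 28.5%.

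Members in cell type marker genes were counted in the same way, over lists of few genes. Neuron markers held 5 members in 4 of 6 genes (66.7%) at a median IsoPct of 0.68%. Astrocyte markers held 2 in 2 of 6 (33.3%) at 5.29%, and oligodendrocyte markers 1 in 1 of 5 (20%) at 7.20%. Oligodendrocyte precursor markers held 1 in 1 of 3 (33.3%), in Cspg4, at 26.8%. The median IsoPct over all members was 10.1%. The 1 microglial and 5 endothelial marker genes counted here held 0. Neuron marker genes had a median count of 35871.5, and 48.4% of all genes with 5000 or more counts held a member. The median was 4249 for astrocyte, 2279.5 for oligodendrocyte and 2110.5 for microglial markers, where 35.6% of all genes held one. For precursor markers it was 909.5, where 13.1% did, and for endothelial markers 432.5, where 4.37% did.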
